A study of Mus musculus with 2 samples.

Results

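The cells described here were macrophages with the highest combined level of Lyz1, Ch25h, Cd36 and Cxcl14 among CD45-positive cells sorted from AB1-HA tumours. AB1-HA is a mouse mesothelioma line. Mice bearing it gave 1 single-cell library after a control antibody and 1 after an anti-VEGF antibody. Both groups shared the tumour line, the digestion, the exclusion of dead cells by propidium iodide and the sort for CD45, the phosphatase on the surface of leukocytes. The number of mice behind a library, their age and strain, and the antibody doses and times are not given in the sources used here. With 1 library per group there was no replicate and no test, so every interval below is a 95% interval that covers counting error only.

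Members were chosen by measured values. A barcode entered the macrophage gate with at least 5000 UMIs (unique molecular identifiers, the counted transcripts), at most 10% mitochondrial UMIs, at most 2 UMIs of Col3a1 and Col1a2 together, no UMI of Cd3e and at least 5 of 9 macrophage genes detected. The score was the mean of log1p(UMIs per 10000) over the 4 genes, and the top 10% of gated cells over both libraries were members. The gate held 11069 of 20512 deposited barcodes, and 1107 cells were members at a score of at least 1.04. In the control library 287 of 6049 gated cells were members, and in the anti-VEGF library 820 of 5020. The libraries held 233687412 and 213948867 UMIs. The median member had 26311 UMIs in the control library and 25478.5 in the anti-VEGF library, against 25143.5 and 24614.5 in the other gated macrophages. There were 35 barcode sequences present in both libraries, 5 members carried one of them, and 0 of them were members in both.

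Macrophages take up lipoproteins, dying cells and debris, and tumours hold several forms of them. Lyz1 and Lyz2 are neighbouring, near-identical genes for lysozyme, the enzyme that cleaves bacterial cell walls, and Lyz2 is the copy used broadly by mouse myeloid cells. Ch25h makes 25-hydroxycholesterol, an oxysterol that restrains cholesterol synthesis and the entry of some viruses. Cd36 is a scavenger receptor that imports fatty acids and oxidised lipoproteins, and Cxcl14 is a chemokine. The gate asked for macrophage genes, so their presence in members follows from the choice of cells and does not check the name. The median member expressed 9 of the 9 gate genes in the control library and 8 in the anti-VEGF library. C1qa was at 5167 and 3351 CPM (a gene's UMIs summed over the set and scaled to a common total) in members of the control and anti-VEGF library, and the F4/80 gene Adgre1 at 379 and 282 CPM. All 4 score genes were detected together in 455 of 1107 members (41.1%), 3 of them in 521, 2 in 126 and 1 in 5. The name describes a range of a score and not a separate type. The score fell off smoothly across the threshold, with 107 control and 235 anti-VEGF cells between 1.0 and 1.1.

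**Figure D1:**
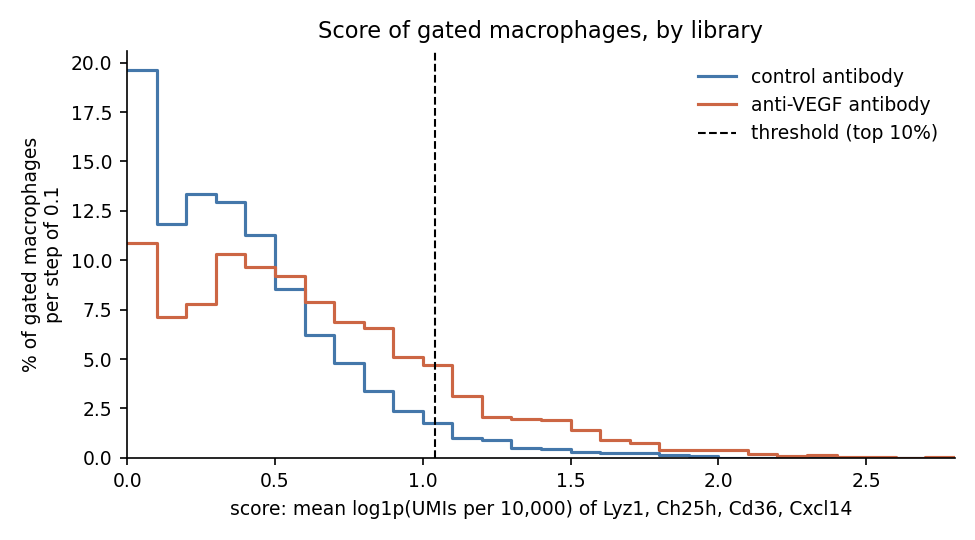
Distribution of the score over gated macrophages of each library, as the percent of cells per step of 0.1, with the threshold as a dashed line. Both curves cross the threshold without a gap, with 1.77% of control and 4.68% of anti-VEGF cells in the step from 1.0 to 1.1.

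Lyz1 had the largest share of the score, so its sequence is shown first beside that of its neighbour. The 100 bases before the transcription start are given 5′ to 3′ from RefSeq on build GRCm38.p6, both on the minus strand, for Lyz1 at chr10:117292869-117292968 and for Lyz2 at chr10:117282273-117282372. Capitals mark the 8 positions at which they differ, which leaves them 92% identical.
Lyz1: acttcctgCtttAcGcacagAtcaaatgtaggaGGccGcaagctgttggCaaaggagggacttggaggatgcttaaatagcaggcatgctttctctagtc
Lyz2: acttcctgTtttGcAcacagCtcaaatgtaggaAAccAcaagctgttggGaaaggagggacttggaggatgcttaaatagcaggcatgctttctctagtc
The transcripts, 1263 and 1316 bases long in GENCODE, were 96.0% identical over 1262 aligned bases. Of 1214 stretches of 50 bases in Lyz1, 195 (16.1%) also occur in Lyz2, and the last 400 bases, near which this 3-prime chemistry reads, were 97.2% identical. Reads can therefore have been dropped or assigned to the wrong copy, and Lyz1 values are uncertain to that extent. Lyz1 made up 8.32% (8.20 to 8.43) of the UMIs of both genes in control members and 10.1% (9.97 to 10.1) in anti-VEGF members. In the other gated macrophages the share was 0.434% (0.424 to 0.444) and 0.545% (0.533 to 0.558).

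The levels of the 4 genes that chose the members are a description. Lyz1 was at 2266 CPM (2234 to 2298) in control members and 2269 CPM (2250.4 to 2288) in anti-VEGF members, against 45.4 and 63.8 CPM in the other macrophages. Ch25h was at 242 CPM (231 to 252) and 222 CPM (216 to 228) in members, against 58.7 and 67.5 CPM in the others. The intervals of the libraries overlapped for Lyz1, while Ch25h was slightly lower in anti-VEGF members. Cd36 was at 157 CPM (148 to 165) in control members and 243 CPM (237 to 249) in anti-VEGF members, with 28.7 and 73.5 CPM in the others. Cxcl14 was at 367 CPM (354 to 380.2) and 499 CPM (491 to 508), with 161 and 222 CPM in the others. These 2 genes were higher in anti-VEGF than in control cells both inside and outside the group. Lyz1 made 40.5% of the members' summed score, Cxcl14 27.8%, Cd36 16.7% and Ch25h 15%.

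The spread of Lyz1 between members was wide. In control members its level ran from 0 through a median of 12.5 to 226 UMIs per 10000, and in anti-VEGF members from 0 through 9.65 to 284. Cxcl14 had medians of 2.84 and 3.84 UMIs per 10000, Ch25h of 1.02 and 0.878, and Cd36 of 0.917 and 1.73. The 50 cells just inside the threshold had median UMI counts of 2 for Lyz1, 2 for Ch25h, 4 for Cd36 and 9 for Cxcl14. The 50 cells just outside had 1, 4.5, 1.5 and 9. Cells at the edge were thus low in Lyz1, and Cxcl14 had the highest median count on both sides.

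To compare shares of cells at equal depth, each cell was thinned to 5000 UMIs. Lyz1 was then found in 77.4% of control and 74.3% of anti-VEGF members (87.5% and 86.3% before thinning), and in 10.3% and 15.1% of the others. Ch25h was found in 41.1% and 41.5% of members (67.9% and 65.2% before thinning), Cd36 in 42.2% and 53.4% (67.6% and 81.6%) and Cxcl14 in 74.9% and 78.2% (99.7% and 97.8%). As a rough guide to free RNA, shares were also taken in cells with T cell receptor UMIs and at most 3 gate genes. These were 35 control and 42 anti-VEGF cells, with a median of 8738 and 11072.5 UMIs. Their thinned shares were 2.86% and 4.76% for Lyz1, 2.86% and 0% for Ch25h, 2.86% and 2.38% for Cd36, and 0% and 4.76% for Cxcl14. A count of 0 among 35 or 42 cells allows a share of up to 8.57% or 7.14%. The members' shares of these 4 genes were set by the rule. The T cell receptor-positive cells were chosen for few gate genes and had fewer UMIs, so they do not measure the free RNA in members.

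**Figure D2:**
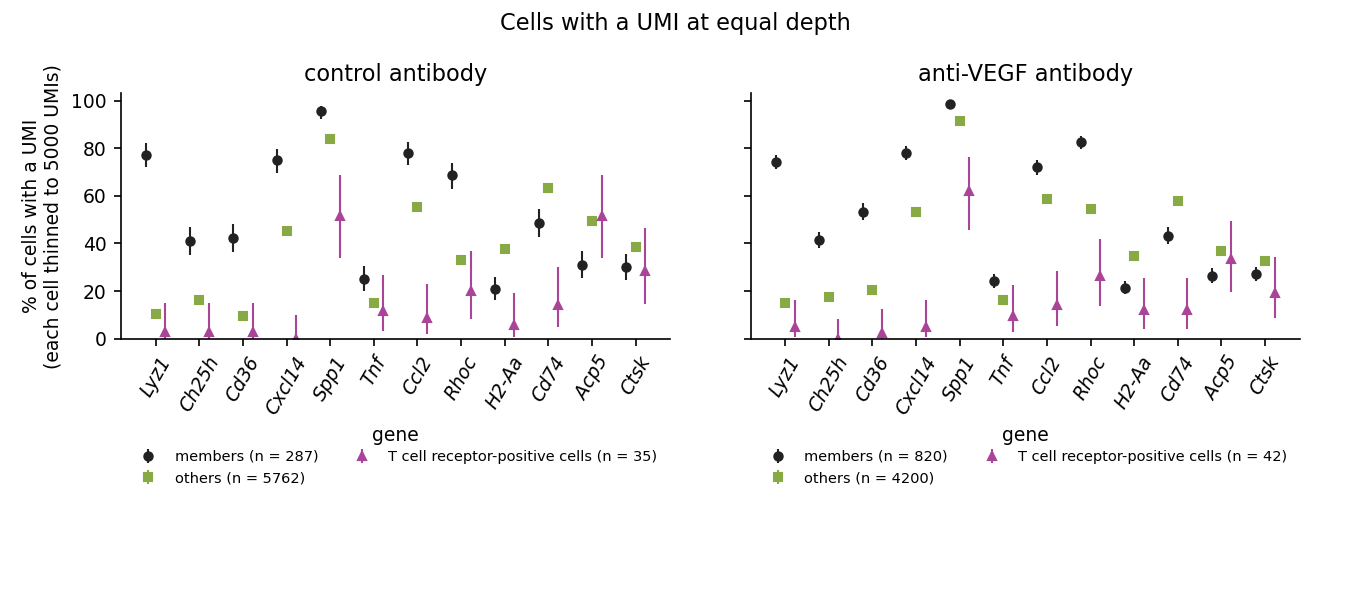
Percent of cells with a UMI after thinning each cell to 5000 UMIs, for the 4 score genes and 8 others, in members, other gated macrophages and T cell receptor-positive cells of each library. Bars are exact binomial 95% intervals. Lyz1 stands at 77.4% and 74.3% in members, while Acp5 and Ctsk in members lie within the intervals of the T cell receptor-positive cells or below them.

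Members fell into a Lyz1-high and a Lyz1-low share, cut at 5 UMIs per 10000, a level chosen after the data were seen. There were 188 Lyz1-high and 99 Lyz1-low members in the control library and 483 and 337 in the anti-VEGF library. The score trades one gene for another, so Lyz1-low members had to be higher in the rest: Ch25h was at 433 and 342 CPM in them and 153 and 136 CPM in Lyz1-high members. Genes that the score did not use differed too. Spp1, the secreted matrix protein osteopontin, was at 13235 CPM in Lyz1-low and 7573 CPM in Lyz1-high members of the control library, and at 14206 and 12568 CPM in the anti-VEGF library. The Ccl2 chemokine, which draws monocytes, was at 2824 against 1745 CPM and 2567 against 1494 CPM. The cytokine gene Tnf was at 148 against 80.5 and 169 against 109 CPM. All 3 were higher in Lyz1-low members in both libraries, while the lipoprotein gene Apoe was lower, at 1829.7 against 5903 CPM and 1127 against 2107 CPM. Cd74, the chain that guides MHC class II molecules, was lower in Lyz1-low than in Lyz1-high members in the control library (392 against 1062 CPM) but not in the anti-VEGF library (880.3 against 835 CPM).

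Gated macrophages at the same Lyz1 cut that were not members numbered 106 and 117. They fell short of the score, so they were low in the other score genes, with Ch25h at 38.7 and 20.9 CPM, and their Lyz1, at 1165 and 1063 CPM, was below the 3261 and 3801 CPM of Lyz1-high members. Spp1 was at 2485 and 4616 CPM in them, close to the 2412 and 4739.7 CPM of Lyz1-low non-members. Cd74 was at 2414 and 1838 CPM, against 2152 and 2170.2 CPM. Lyz2 was higher in Lyz1-high than in Lyz1-low cells in both libraries, among members and non-members alike, at 22914 and 18559.8 CPM in Lyz1-high and 10171 and 11443 CPM in Lyz1-low non-members, and at 27491 and 21817 against 19539.9 and 18202 CPM in members.

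**Figure D3:**
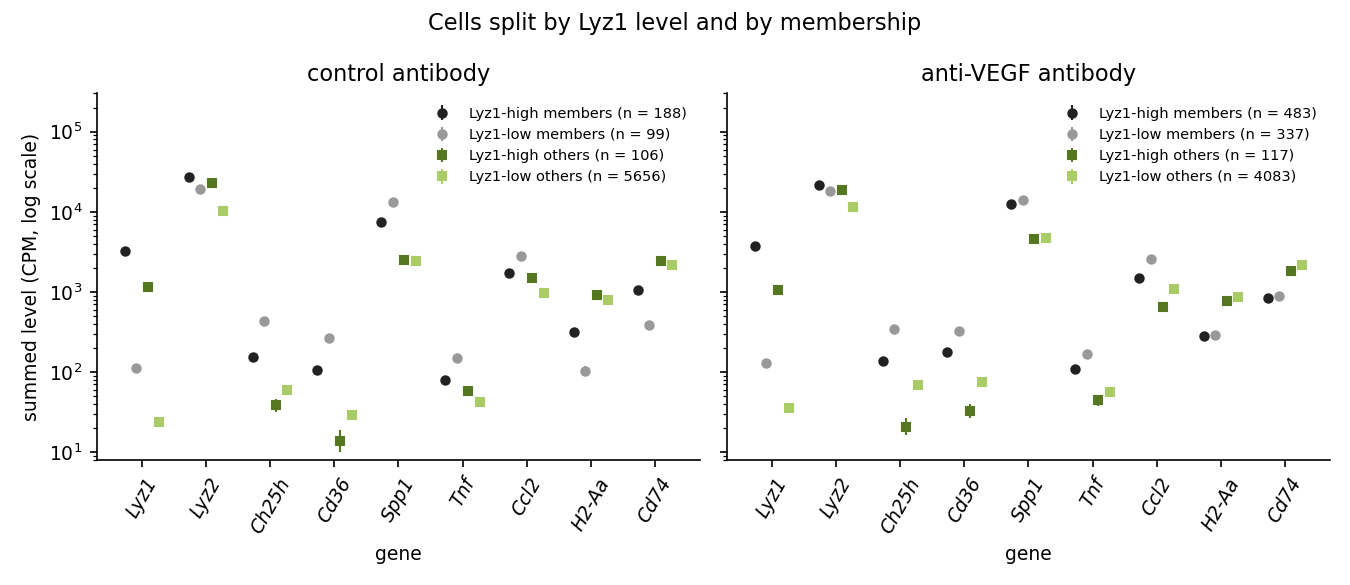
Summed level in CPM (log axis) of 9 genes in members and other gated macrophages, each split at 5 UMIs of Lyz1 per 10000, with exact Poisson 95% intervals that are mostly smaller than the points. Spp1 lies between 7573 and 14206 CPM in the sets of members and between 2412 and 4740 CPM in the sets of non-members.

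Members were then set beside the other gated macrophages of their own library over all genes with at least 30 UMIs. The score was computed on these same cells, so these differences describe the group and support nothing. Of 13432 genes in the control library, 6.74% were at least 1.5-fold higher and 16.7% at least 1.5-fold lower in members. Of 13049 genes in the anti-VEGF library the shares were 2.91% and 10.2%. The median log2 ratio over all genes was -0.10 and -0.08.

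Spp1 stood highest. It was at 9362 CPM in members and 2413 CPM in the other macrophages of the control library, and 13252 and 4736 CPM in the anti-VEGF library, a ratio of 3.88 (3.85 to 3.91) and 2.8 (2.79 to 2.81). The median member held 38.9 and 66.7 Spp1 UMIs per 10000, against 8.0 and 17.8 in the median of the others. Among 12 genes of lipid-associated and Spp1 macrophages, 9 were at least 1.5-fold higher and 1 lower in control members (median log2 ratio 0.77). In anti-VEGF members 1 was higher and 1 lower by that fold (0.34). The list included the cathepsin Ctsl, a lysosomal protease, at 2041 CPM in members and 922 CPM in the other macrophages of the control library, and 2052 and 1418 CPM in the anti-VEGF library. The tetraspanin Cd9 was at 679 CPM in members and 386 CPM in the other macrophages of the control library, and 791 and 549 CPM in the anti-VEGF library. Lpl, the lipoprotein lipase counted with the fatty acid genes, was lower in members, at 101 CPM in members and 173 CPM in the other macrophages of the control library, and 85.8 and 137 CPM in the anti-VEGF library.

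Inflammatory genes split. Tnf was at 102 CPM in members and 42.8 CPM in the other macrophages of the control library, and 134 and 55.6 CPM in the anti-VEGF library, with ratios of 2.38 (2.21 to 2.55) and 2.42 (2.32 to 2.52). The highest 15 of 287 control and 41 of 820 anti-VEGF members held 52.4% and 56.6% of the Tnf UMIs. At equal depth Tnf was found in 25.1% and 24.1% of members (58.2% and 54.8% before thinning), in 15% and 16.3% of the others and in 11.4% and 9.52% of T cell receptor-positive cells. The T cell receptor-positive cells do not measure the free RNA in members, so their Tnf share is no background level. Il1b, the gene of interleukin-1 beta, was lower in members, at 184 CPM in members and 356 CPM in the other macrophages of the control library, and 276 and 393 CPM in the anti-VEGF library. Of 12 CC chemokine genes, 4 were at least 1.5-fold higher and 3 lower in control members, and 6 higher and 2 lower in anti-VEGF members. Ccl2 was at 2086 CPM in members and 991 CPM in the other macrophages of the control library, and 1942 and 1087 CPM in the anti-VEGF library, and Ccl7, a monocyte attractant as well, at 1304 CPM in members and 679 CPM in the other macrophages of the control library, and 1146 and 703 CPM in the anti-VEGF library. With Ch25h left out of the score, the log2 ratio of Ccl7 in the anti-VEGF library was -0.10, against 0.70 with it. Other values moved too over 13 alternative choices of cells, score or counting. The log2 ratio of Ccl2 ran from 0.29 to 1.45 and from 0.15 to 1.11 in the 2 libraries, and control Ccl7 from 0.11 to 1.38. Tnf ran from 0.64 to 1.44 and from 0.71 to 1.53. The median of the CC chemokine genes ran from 0.04 to 0.64 and from -0.15 to 0.68. Ccl5, which attracts T cells, was lower, at 10.4 CPM in members and 54.6 CPM in the other macrophages of the control library, and 21 and 67.6 CPM in the anti-VEGF library. The C-type lectin Clec4e, which senses mycobacterial lipid and cell death, was at 130.2 CPM in members and 51.8 CPM in the other macrophages of the control library, and 180.2 and 106 CPM in the anti-VEGF library, and its partner Clec4d at 150.5 CPM in members and 62.7 CPM in the other macrophages of the control library, and 234 and 152 CPM in the anti-VEGF library. Arg1, the arginase of alternatively activated macrophages, was at 1314 CPM in members and 632 CPM in the other macrophages of the control library, and 2349.7 and 1694 CPM in the anti-VEGF library. The list of alternative activation as a whole did not follow it. Of its 11 genes, 3 were at least 1.5-fold higher and 4 lower in control members, and 0 and 3 in anti-VEGF members. Their median log2 ratios were -0.30 and -0.06. Rhoc, a small GTPase of cell movement, was at 299 CPM in members and 106 CPM in the other macrophages of the control library, and 406 and 214 CPM in the anti-VEGF library, and C5ar1, the receptor for complement C5a, at 177 CPM in members and 94.2 CPM in the other macrophages of the control library, and 243 and 156 CPM in the anti-VEGF library. Nfkbiz, Pdlim7, Fam20c and Clec5a also stood among the 12 highest, with log2 ratios of 0.81 and 0.64, 0.64 and 0.67, 1.18 and 0.64, and 0.73 and 0.64.

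The genes that present antigen on MHC class II were low in members. Of 9 such genes, 7 were at least 1.5-fold lower in each library, with median log2 ratios of -1.38 and -1.34. The alpha chain H2-Aa was at 252 CPM in members and 799.8 CPM in the other macrophages of the control library, and 286 and 859 CPM in the anti-VEGF library. Its beta chain H2-Ab1 was at 182 CPM in members and 546 CPM in the other macrophages of the control library, and 215 and 573 CPM in the anti-VEGF library, and Cd74 at 850.5 CPM in members and 2157 CPM in the other macrophages of the control library, and 854 and 2161 CPM in the anti-VEGF library. Ciita, the regulator that switches these genes on, was at 1.91 and 3.25 CPM in members and 6.57 and 7.02 CPM in the others. Per cell, the median Cd74 level was 0.823 and 0.701 UMIs per 10000 in members and 2.86 and 1.91 in the others, and the highest 10% of members began at 22.3 and 20.8, near the upper quartile of the others at 20.5 and 19.5. Ctss, the protease that trims the class II chain, was the exception, at 2274 CPM in members and 1451 CPM in the other macrophages of the control library, and 2114 and 1769 CPM in the anti-VEGF library.

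Several of the 12 lowest genes were those of osteoclasts, the bone-resorbing relatives of macrophages. Of 12 listed genes, 11 were at least 1.5-fold lower in control members and 10 in anti-VEGF members, with median log2 ratios of -2.92 and -2.12. The size of these medians depended on the choices made. Over 13 alternatives they ran from -3.21 to -0.14 and from -2.51 to -0.23. Acp5, tartrate-resistant acid phosphatase, was at 123 CPM in members and 2198 CPM in the other macrophages of the control library, and 228 and 1864 CPM in the anti-VEGF library. Ctsk, cathepsin K, was at 136 CPM in members and 2266 CPM in the other macrophages of the control library, and 386 and 2078 CPM in the anti-VEGF library, and Mmp9, a gelatinase, at 23.2 CPM in members and 719 CPM in the other macrophages of the control library, and 141 and 959 CPM in the anti-VEGF library. Nfatc1, the factor that drives osteoclast formation, was at 29.1 CPM in members and 197 CPM in the other macrophages of the control library, and 30.5 and 124 CPM in the anti-VEGF library.

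Cells high in Acp5 and Ctsk were rare among members. Those with at least 20 UMIs of Acp5 and Ctsk per 10000 numbered 9 of 287 control and 41 of 820 anti-VEGF members, against 1286 of 5762 and 657 of 4200 others. All of them were then left out, a step chosen after seeing the data. It takes away the cells highest in Acp5 and Ctsk by construction, so the values of these 2 genes after it are a description only. Ctsk was at 68.5 CPM in members and 58.5 CPM in the others of the control library, and at 95 and 75.7 CPM in the anti-VEGF library. Mmp9, which the step did not use, then stood at 21.1 against 22.5 and 33.8 against 31.2 CPM, while Acp5 stayed lower, at 102 against 163 and 79.6 against 110.2 CPM. Nfatc1 also stayed lower in members, at 27.6 against 87.2 and 26.6 against 47.3 CPM. Cd74 stayed lower in members: it was at 859.6 against 2684 CPM and 836 against 2474 CPM without them. Spp1 remained higher in members, at 9287 against 3049.9 and 13236 against 5536 CPM. At equal depth, Acp5 was found in 31% and 26.3% of members (76% and 68.8% before thinning) and in 51.4% and 33.3% of T cell receptor-positive cells. The members' share was below the 95% interval of the T cell receptor-positive cells in the control library (34.0% to 68.6%). In the anti-VEGF library it lay within theirs (19.6% to 49.5%). Those cells began with fewer UMIs, so they give no clean floor, and background as the source of the members' Acp5 was not tested. The highest 41 of 820 anti-VEGF members held 76.7% of their Acp5 UMIs.

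**Figure D4:**
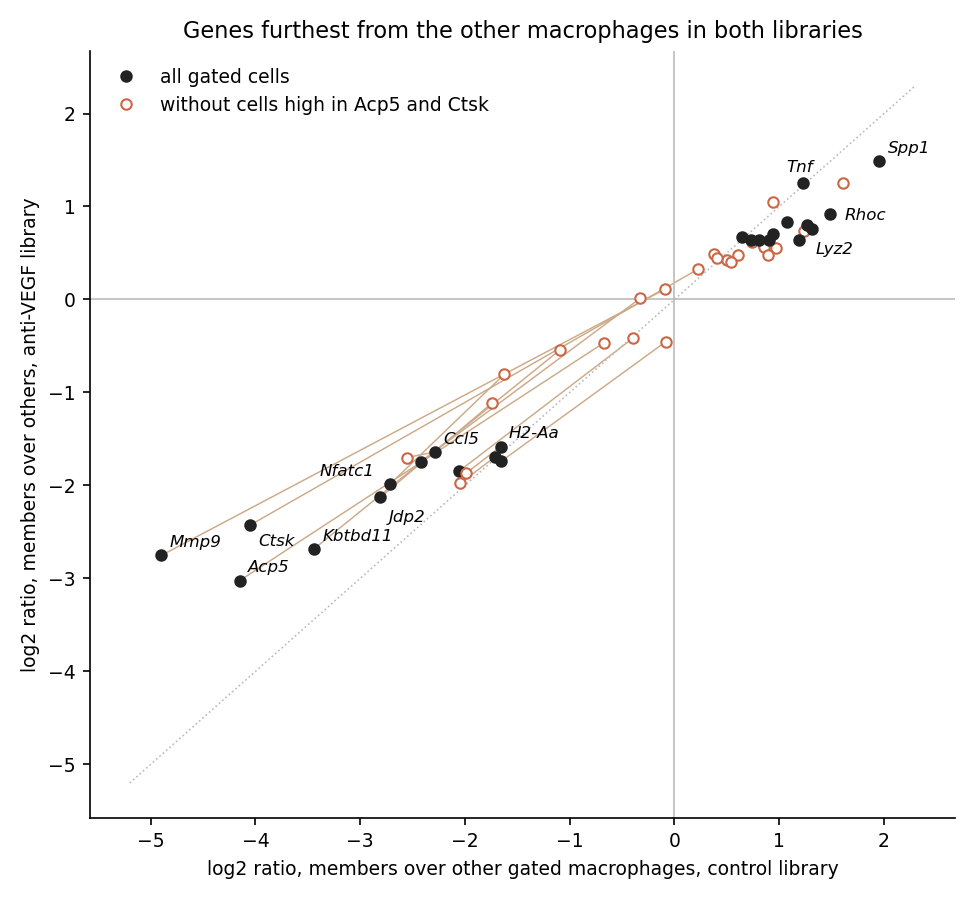
Log2 ratio of members over other gated macrophages in the control library (x) and the anti-VEGF library (y) for the 12 highest and 12 lowest genes, with all gated cells (filled) and without cells high in Acp5 and Ctsk (open, lines join the lowest genes). Mmp9 moves toward 0 without those cells, as do Ctsk and Acp5 by construction, while Spp1 stays the highest gene.

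Other genes of the pathways of Ch25h and Cd36 went both ways. Of 19 measured genes for oxysterols and cholesterol, 1 was at least 1.5-fold higher and 3 lower in control members, and 0 and 1 in anti-VEGF members. Median log2 ratios were -0.06 and -0.19. Hmgcs1, an early enzyme of cholesterol synthesis, was at 29.97 CPM in members and 48.2 CPM in the other macrophages of the control library, and 33.9 and 54 CPM in the anti-VEGF library. Abca1, the cholesterol exporter, was at 103 CPM in members and 71.6 CPM in the other macrophages of the control library, and 86.6 and 85.1 CPM in the anti-VEGF library. Gpr183, the receptor for oxysterols made further along from 25-hydroxycholesterol, was at 229 CPM in members and 239 CPM in the other macrophages of the control library, and 176 and 179 CPM in the anti-VEGF library. Among 19 fatty acid genes, 2 were at least 1.5-fold higher and 4 lower in control members, and 1 and 4 in anti-VEGF members. The fatty acid carrier Fabp5 was at 744 CPM in members and 461 CPM in the other macrophages of the control library, and 544 and 466 CPM in the anti-VEGF library, and the lipid droplet gene Plin2 at 449 CPM in members and 300.4 CPM in the other macrophages of the control library, and 381 and 328 CPM in the anti-VEGF library. Pparg, the nuclear receptor known to raise Cd36, was at 4.06 and 3.49 CPM in members and 2.97 and 2.65 CPM in the others.

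Other receptors and programmes were mixed. Scavenger and lectin receptors had 6 of 15 genes at least 1.5-fold higher and 4 lower in control members, and 4 and 5 of 16 in anti-VEGF members. The scavenger receptor Msr1 was at 503 CPM in members and 299 CPM in the other macrophages of the control library, and 494 and 364 CPM in the anti-VEGF library, and Mertk, a receptor for dying cells, at 33.3 CPM in members and 16 CPM in the other macrophages of the control library, and 24.3 and 15.9 CPM in the anti-VEGF library, whereas its relative Axl was at 29.6 CPM in members and 59.3 CPM in the other macrophages of the control library, and 20.4 and 39.6 CPM in the anti-VEGF library. Of 12 genes of resident macrophages, 2 were at least 1.5-fold higher and 3 lower in control members, and 0 and 3 in anti-VEGF members, with median log2 ratios of 0.13 and 0.01. Among the higher ones Folr2, the folate receptor, was at 366 CPM in members and 171 CPM in the other macrophages of the control library, and 326 and 219.6 CPM in the anti-VEGF library. Of 12 monocyte genes, 2 were at least 1.5-fold higher and 6 lower in control members, and 1 and 9 in anti-VEGF members. Their medians were -0.57 and -0.83. With Lyz1 left out of the score the control median was 0.23. Ly6c2, the mark of classical monocytes, was at 0.119 and 2.22 CPM in members and 4.42 and 8.59 CPM in the others. All 20 oxidative phosphorylation genes were lower in members of each library, with medians of -0.31 and -0.23, and 1 and 0 of them were at least 1.5-fold lower. Without cells high in Acp5 and Ctsk these medians were -0.02 and -0.01. Over all genes 62.6% and 66.8% were lower. Of 14 hypoxia genes, 11 were higher and 3 lower in members of each library, with medians of 0.58 and 0.13. By at least 1.5-fold, 7 and 0 of them were higher. Of 14 glycolysis genes, 14 and 13 were higher, with medians of 0.34 and 0.17, and 1 and 0 reached 1.5-fold. Of 20 proliferation genes, 19 and 20 were lower, with medians of -0.30 and -0.34, and Mki67 was at 130.0 CPM in members and 176 CPM in the other macrophages of the control library, and 108 and 147 CPM in the anti-VEGF library.

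Ranking gated cells by 5 other scores and taking the top 10% of each gave sets of the same size, so a shared count is the same share of both. Members shared 192 cells (17.3%) with the set highest in hypoxia genes and 71 (6.41%) with the set highest in Selenop and Stab1. They shared 33 (2.98%) with the set highest in Lpl, Vegfc and Dusp9, 27 (2.44%) with the MHC class II set and 4 (0.361%) with the Acp5 and Ctsk set. In the control library these sets held, in that order, 3.48%, 3.48% and 0% of members, against 12.04%, 10.9% and 12.3% of the other gated cells. In the anti-VEGF library they held 2.8%, 2.07% and 0.488% of members, against 9.05%, 10.8% and 9.45%. Each share was lower in members. Of the Selenop and Stab1 overlap, 40 cells came from the control library, 13.9% of its members, against 13.3% of its other gated cells, and 31 came from the anti-VEGF library, 3.78% against 6.38%. Of the hypoxia overlap, 177 cells came from the anti-VEGF library, 21.6% of its members, against 18.3% of its other gated cells, and 15 came from the control library, 5.23% against 2.57%.

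The share of gated macrophages that were members was 4.74% (4.22 to 5.31) in the control library and 16.3% (15.3 to 17.4) in the anti-VEGF library, a difference of 11.6 percentage points (10.4 to 12.8). With 1 library per group, the antibody and the library cannot be told apart. The share moved with the threshold, from 1.97% and 8.67% at the top 5% to 11.5% and 30.3% at the top 20%. Outside the group all 4 score genes were higher in the anti-VEGF than in the control library, with a median log2 ratio of 0.47. In members 3 were higher and 1 lower, with a median of 0.22. The rule used these genes to divide the cells, so both values are a description only. With Lyz1 left out of the score the shares were 5.09% and 15.9%, but 566 of the 1107 members were then the same cells.

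Members of the 2 libraries were next set against each other. Of 11026 genes with at least 30 UMIs over the members of both libraries, 4.96% were at least 1.5-fold higher and 4.91% at least 1.5-fold lower with anti-VEGF antibody, and the median log2 ratio was -0.06. These shares are 547 and 541 genes. The split moved with the scaling, to 696 higher and 403 lower with TMM and 683 and 409 with DESeq2 size factors, and was 417 and 769 with the top 10% taken within each library. Over all genes 61.1% were lower at any size. The other gated macrophages share these libraries, so their ratios stand beside as values and no difference between the sets was tested.

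Hypoxia genes were higher in anti-VEGF members. All 14 listed genes were higher and 10 at least 1.5-fold, with a median log2 ratio of 0.75 in members and 1.05 in the others. Ndrg1, a stress gene induced by low oxygen, was at 192 CPM (183 to 202) in control and 424 CPM (416 to 432) in anti-VEGF members. The glucose transporter gene Slc2a1 was at 115 and 211 CPM, and Bnip3, which marks mitochondria for removal, at 194 and 353 CPM. Vegfa, the target of the antibody, was at 112 CPM (105 to 119.9) in control and 152 CPM (147 to 156) in anti-VEGF members, with 121 and 169 CPM in the others. All 14 glycolysis genes were higher, 5 at least 1.5-fold, with a median of 0.50 in members and 0.68 in the others. Aldoa, an aldolase, was at 1321 and 2189.7 CPM and the phosphoglycerate kinase Pgk1 at 815 and 1334 CPM. Fxyd2, a regulator of the sodium pump, was at 90.9 and 219 CPM in members, and Slc7a2, an arginine transporter, at 23.6 and 70.4 CPM. Hmox1, the haem-degrading enzyme, was at 319 CPM in control and 755 CPM in anti-VEGF members, and Arg1 at 1314 and 2349.7 CPM. Per cell, the median Hmox1 level was 1.78 UMIs per 10000 in control and 1.92 in anti-VEGF members. The upper quartiles were 3.08 and 4.93, and the highest cells held 66.1 and 322. The libraries were thus close at the median of Hmox1 and further apart among its highest cells. Spp1 was at 9362 and 13252 CPM, a ratio of 1.42 (1.4 to 1.43), beside 1.96 (1.95 to 1.97) in the others.

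Genes of resident macrophages were lower in anti-VEGF members: 11 of 12 were lower and 7 at least 1.5-fold, with a median log2 ratio of -0.66 in members and -0.33 in the others. Fcrls, an Fc receptor-like gene of resident cells, was at 78 CPM (72.1 to 84.2) in control and 20.6 CPM (18.9 to 22.5) in anti-VEGF members. Selenop, a secreted selenium carrier, was at 384 and 172 CPM. Hpgds, a prostaglandin D synthase outside that list, was at 108 and 53.9 CPM, and Tfrc, the transferrin receptor, at 59.1 and 31.2 CPM. The exception within the list was Lyve1, a hyaluronan receptor, at 7.76 and 28.9 CPM. In the 26 control and 39 anti-VEGF members chosen after cells with at least 3 UMIs of any other-lineage list were dropped, the list's median was 0.04. All 9 gate genes were lower and 5 at least 1.5-fold, with a median of -0.62 in members and -0.18 in the others. Apoe was at 4616 CPM in control and 1698 CPM in anti-VEGF members, and C1qb at 3261 and 1917 CPM. The lysozyme gene Lyz2 was at 24978 and 20308 CPM. Ccl8, a chemokine, was at 1040.1 and 577 CPM in members but at 1097 and 1076 CPM in the others. Of 20 proliferation genes, 19 were lower, with a median of -0.37 in members and -0.37 in the others.

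**Figure D5:**
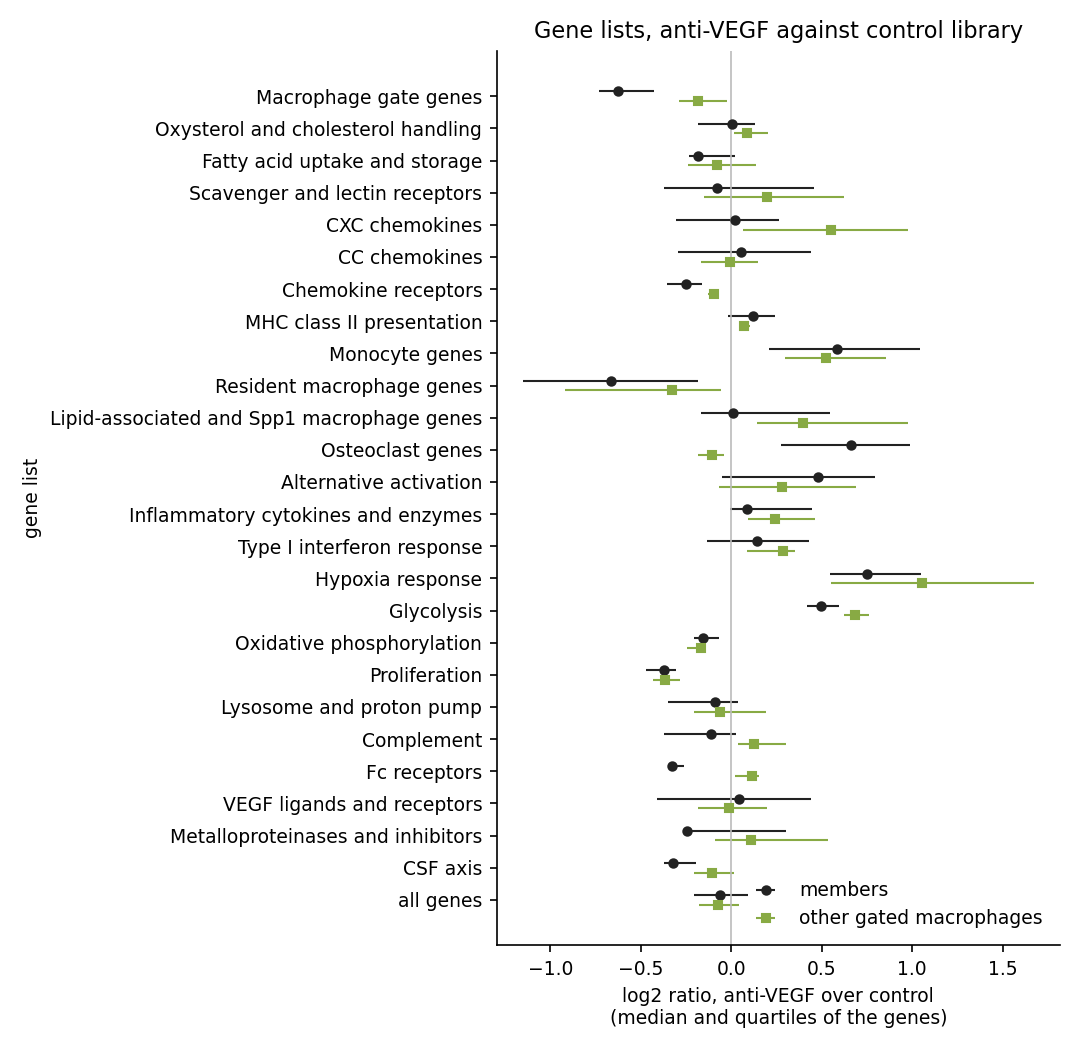
Median log2 ratio of anti-VEGF over control (points) with the quartiles over the genes of each list (bars), in members and in the other gated macrophages. Hypoxia and glycolysis lie above 0 and resident macrophage and gate genes below 0 in both sets, while osteoclast genes are at 0.66 in members and -0.11 in the others.

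MHC class II genes were close to level between the libraries, with a median log2 ratio of 0.12 that changed sign with the choice of members, from -0.70 with the top 10% taken within each library to 0.21 with another scaling. It was -2.45 in the 26 control and 39 anti-VEGF members chosen after cells with at least 3 UMIs of any other-lineage list were dropped. The members' level of Cd74 was 850.5 CPM (831 to 870.4) and 854 CPM (842 to 865). Monocyte genes had 8 of 10 measured genes higher, with a median of 0.59, beside 0.52 in the others. This rested on the choice of members: the median was 0.10 both with Lyz1 left out of the score and with the top 10% taken within each library, and -0.78 in the 65 members just named. Plac8 was at 25.8 and 57.4 CPM, a log2 ratio of 1.12, which was 0.01 with Lyz1 left out of the score and 0.04 with the top 10% taken within each library.

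Some of the highest ratios rested on few cells. Osteoclast genes were higher in anti-VEGF members in 10 of 11 measured genes, with a median log2 ratio of 0.66, and Mmp9 was at 23.2 and 141 CPM. The highest 41 of 820 anti-VEGF members held 87.4% of the Mmp9, 80.5% of the Ctsk and 76.7% of the Acp5 UMIs. Without cells high in Acp5 and Ctsk, which are themselves on the list, the median was 0.01, and after thinning it was -0.12. S100a9, a calprotectin subunit of neutrophils, had 5 UMIs in control and 1844 in anti-VEGF members, and 97.8% of the latter lay in 41 cells. S100a8, its partner, was at 13.1 and 53.5 CPM. Its log2 ratio was 1.95. Mmp12, macrophage elastase, was at 64.7 and 139 CPM, and 1 control cell held 51.8% of the control UMIs.

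Markers of other cells were summed in members as a check of the sort and gate. T cell genes came to 2.39 and 1.93 CPM in control and anti-VEGF members, NK cell genes to 4.30 and 1.89, B and plasma cell genes to 2.75 and 0.493, mast cell genes to 0.597 and 0.575 and tumour or mesothelial genes to 0.716 and 1.23 CPM. Trac and Cd8a had 0 UMIs in control members. Neutrophil genes came to 22 and 137 CPM, with Ly6g at 0 in both libraries and Retnlg at 0 in the control library, and 16 of 287 and 60 of 820 members held at least 3 of these UMIs. S100a8 and S100a9 are themselves on this list, and the part of neutrophil RNA in their ratios was not tested. Conventional dendritic cell genes came to 2.75 and 6.66 CPM, endothelial genes to 10.9 and 7.77, eosinophil genes to 1.91 and 2.47 and fibroblast genes to 7.40 and 7.07 CPM. The plasmacytoid dendritic cell list stood highest, at 327 and 309 CPM, with at least 3 UMIs in 89.5% and 89.1% of members. It was nearly all Bst2 and Tcf4, with Bst2, an interferon-induced membrane protein, at 183 and 177 CPM in members and 172 and 182 CPM in the others, while Siglech, a defining gene of those cells, was at 0.119 and 0 CPM in members. The mural cell list came to 156 and 179 CPM and was nearly all Cspg4, at 154 and 178 CPM, with Rgs5, Kcnj8 and Des at 0. Cspg4, a proteoglycan known from pericytes, was at 78.8 and 114 CPM in the other macrophages and was found in none of the 35 control and 42 anti-VEGF T cell receptor-positive cells.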

How the data were processed

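The authors deposited raw counts of UMIs for each gene in each barcode. Cell Ranger 3.0.2 and build mm10 are named by the submitters' processing notes, and the file headers give a software version of 3.1.0. Cells came from the 10x Genomics 3-prime v3.1 chemistry per the labels' protocols. Counts of features with the same symbol were summed, which left 31017 genes. The sources used here do not give how reads matching both Lyz1 and Lyz2 were treated.

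The members, the 26 gene lists, the 12 other-lineage lists and the rules were chosen with earlier results of these data known. No doublet caller was run. In an alternative, cells with at least 3 UMIs over all 12 other-lineage lists were left out, which left 649 gated cells, of which 65 were then chosen as members, since Bst2, Tcf4 and Cspg4 of those lists were found in most members. A narrower rule over 7 lists (T cell, NK cell, B and plasma cell, neutrophil, mast cell or basophil, endothelial, tumour or mesothelial), chosen after seeing the data, removed 1425 gated cells, 132 of them members. Doublets remain in the values otherwise. UMIs were summed over the cells of a set and divided by the total of the set to give CPM, with 95% intervals: exact Poisson for a level, conditional binomial for a ratio and Clopper-Pearson for a share. PCR copies were collapsed by UMI, and cells of 1 library are not replicates, so the intervals cover counting error only. Log2 ratios used a pseudocount of 1 CPM, which understates the change of low genes, and genes needed 30 UMIs over both sets. A fold of 1.5 was used for counting and is no test. Cells were thinned to 5000 UMIs with a fixed seed, and no gated cell was below that depth. T cell receptor-positive cells had at least 3 receptor UMIs. Named genes are list members, the 12 highest and 12 lowest ratios of members to others (the smaller of both libraries, at least 50 CPM) and the 10 highest and 10 lowest ratios between libraries (at least 50 CPM and 10% of cells), without the score and gate genes and without predicted, ribosomal, mitochondrial, antigen receptor, haemoglobin and sex-linked marker genes. Clec7a was not among the symbols used. The ratio step was checked on simulated Poisson counts, the model that the intervals assume, so this checks the arithmetic only. Clustering of UMIs in few cells was not simulated. Scaling by edgeR's TMM and DESeq2's size factors was an alternative for the counts, with no model test. Python 3.11.15, numpy 2.4.6, scipy 1.17.1 and pandas 2.3.3 were used.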

Additional observations from a re-analysis of the deposited data

Results flagged for a closer look

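Acp5, Ctsk and Cxcl9 were named because their ratio of anti-VEGF to control lay on opposite sides of 1 in members and in the other gated macrophages. This difference was not tested, since there was 1 library per group. The ratio for Acp5 was 1.86 in members and 0.848 in the others, and for Ctsk 2.84 in members and 0.917 in the others. In both, 41 anti-VEGF members held most of the UMIs. The ratio for Cxcl9, an interferon-induced chemokine that attracts T cells, was 0.596 in members and 1.52 in the others. Its level was 56.2 CPM in control and 33.5 CPM in anti-VEGF members, and 73.9 and 113 CPM in the others.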

How the results depend on the processing

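The share of members was higher in the anti-VEGF library under the alternatives run, except with the top 10% taken within each library, which makes the shares equal by construction. The difference was 11.6 points, and 6.70 with the top 5%, 18.8 with the top 20%, 9.51 with the score without Cd36, 10.2 without Cxcl14 and 9.89 without cells holding at least 3 UMIs of any other-lineage list. After that last step 65 members were chosen, 37 of them the same cells as before, and in them the log2 ratio between libraries was -1.72 for Mmp9 and 0.38 for Hpgds and the median was 0.0435 for resident macrophage genes and -0.78 for monocyte genes. Counts of genes past 1.5-fold moved with the minimum of UMIs, given here without a minimum and with 300 UMIs. Between libraries 547 genes higher became 3089 and 157, and 541 lower became 2121 and 128. In control members against others 905 higher became 1858 and 448, and 2248 lower became 6976 and 1021. In anti-VEGF members 380 higher became 1710 and 144, and 1327 lower became 4838 and 474. Without cells high in Acp5 and Ctsk, an alternative chosen after seeing the data, 905 became 572. The same step turned the log2 ratio of members to others to 0.22 for Ctsk in the control library, and to 0.32 for Ctsk, 0.11 for Mmp9 and 0.0118 for Nudt22 in the anti-VEGF library. Without Ch25h in the score, Ccl7 stood at -0.10 in anti-VEGF members against others. The median of osteoclast genes between libraries was -0.12 after thinning. The cause of these changes was not tested. Scaling by TMM or DESeq2 size factors moved the median log2 ratio of all genes between libraries from -0.06 to 0.02 and 0.01, and the genes past 1.5-fold to 696 and 683 higher and 403 and 409 lower. No paired analysis was possible because each group has 1 library, and for the same reason no replicate could be left out. With 287 control members, genes below about 30 UMIs carry wide intervals.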

Other observations

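All 5 Fc receptor genes, which bind antibody, were lower in anti-VEGF than in control members, with a median log2 ratio of -0.32, beside 0.11 in the others. None reached 1.5-fold, and 61.1% of all genes were lower in this comparison. Fcgr3 was at 562 and 468 CPM in members and 343 and 371 CPM in the others. All 7 genes of the colony-stimulating factor axis were lower in anti-VEGF members, with a median of -0.32, beside -0.11, and again none reached 1.5-fold. Csf1r, the receptor that sustains macrophages, was at 496 CPM (481 to 511) in control and 397 CPM (389 to 405) in anti-VEGF members. Nos2, the inducible nitric oxide synthase, was low in both, at 3.22 and 16.2 CPM in members and 2.02 and 10.7 CPM in the others. Among VEGF receptors, Nrp1 was at 73.3 and 46.5 CPM in members and Kdr at 10.4 and 6.91 CPM. The ligand Vegfc was at 4.06 CPM (2.81 to 5.67) in control and 11 CPM (9.74 to 12.4) in anti-VEGF members, and at 12.1 and 13.7 CPM in the others.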
